A study of Mus musculus with 6 samples.

Results

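The matrix metalloproteinases (Mmp), the membrane-bound ADAM proteases, the secreted ADAMTS proteases and the tissue inhibitors of metalloproteinases (Timp) were described in mouse intestinal tumors of different sites. Members were the probe sets (groups of short probes against the same transcript) whose platform annotation names exactly 1 gene of the Mmp, Timp, Adam or Adamts series. Mmp7 was left out by rule. This gave 82 of the 22690 probe sets on the array, for 53 genes: 24 probe sets of 17 Mmp genes, 13 of 4 Timp genes, 36 of 25 Adam genes and 9 of 7 Adamts genes. RNA of 3 duodenal and 3 cecal tumors, those of each site from different mice, was hybridised to 1 array per tumor. All were Rb1 deficient Apc1638N mice, that is, deficient in the retinoblastoma gene Rb1 and carrying an Apc allele that gives rise to tumors of the gut. How and in which cells Rb1 was removed is not given in the sources used here. Duodenal samples could include tumor tissue of the pylorus, the outlet of the stomach. Neither normal gut nor tumors with functional Rb1 were analysed here.

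Metalloproteinases of these families use a zinc ion to cut proteins and are made with a propeptide that holds them inactive. Secreted Mmps cut collagens, gelatin and other matrix proteins, ADAMs release growth factors, receptors and adhesion molecules from the cell surface, and ADAMTS proteases cut proteoglycans such as versican. Timps bind the active site of these proteases, and Timp3 differs from the other Timps in that it is held in the matrix. In intestinal tumors much of the Mmp and Timp message is known to come from stromal and inflammatory cells rather than from the epithelium.

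Values are MAS5 intensities on a linear scale, and a difference is a log2 fold of intensity + 16, cecal minus duodenal, so that a positive value is higher in cecal tumors. A probe set had to exceed the 40th percentile of the array (92.4 to 100.6), called the detection level here, on no fewer than 3 arrays to be tested. The arrays' medians were 164.6 to 181.8. The values are those of whole tumors, in which fewer cells of a type and less RNA per cell cannot be told apart. Rb1 read 306.7 to 387.5 across the 6 arrays and Apc 630.4 to 908 by its brightest probe set. Which parts of these transcripts the probes cover was not determined here, so they check neither label. All 8 epithelial markers were tested, 3 of them higher in cecal tumors, with summed intensities of 55841 to 63860 in duodenal and 68565 to 71071 in cecal tumors. All 8 stomach and pylorus markers were lower in cecal tumors, with summed intensities of 56005 to 84487 in duodenal and 574.8 to 813.4 in cecal tumors. All but Tff1 were below the detection level in all cecal tumors. The direction of their folds thus largely follows from the level needed for testing. All 6 tested large intestine markers were higher in cecal tumors. Of these, Car1, Cyp2c55, Aqp8 and Saa1 were below the detection level in all duodenal tumors, with the same limit on direction. Hoxb13 lay below the detection level on every array and Hoxd10 was above it on 1 array only, so neither was tested.

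Of the 82 probe sets, 37 were tested, for 22 genes. Of these, 8 probe sets of 7 genes passed the limma test at an adjusted p of 0.05, beside 9.3% of all 13866 tested probe sets. Higher in cecal tumors were 4 probe sets, of Mmp9, Mmp2 and Timp3, where 5.24% of all tested probe sets were higher. Lower in cecal tumors were 4, of Adam28, Adamts15, Mmp23 and Adam8, where 4.07% of all were lower. The share called was thus 21.6% of the tested members, a count that includes Mmp2 by a pair of probe sets. It also includes Adam28 and Mmp23, which were below the detection level on all cecal arrays and could be tested only because they were above it on all duodenal arrays. The called Mmp9 and Adamts15 probe sets were above it on all arrays of their brighter site and on 1 array of the other. These too reached the 3 arrays needed only with those of the brighter site. The values of the sites did not overlap for 15 of the 37, or 40.5%, beside 29.5% of all tested probe sets. The median log2 fold was -0.04 over the 37 and -0.04 over all tested probe sets. By family the median was 0.21 for Mmp, 0.45 for Timp, -0.21 for Adam and -0.22 for Adamts, over 11, 10, 12 and 4 probe sets. These include several probe sets of the same gene.

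**Figure D1:**
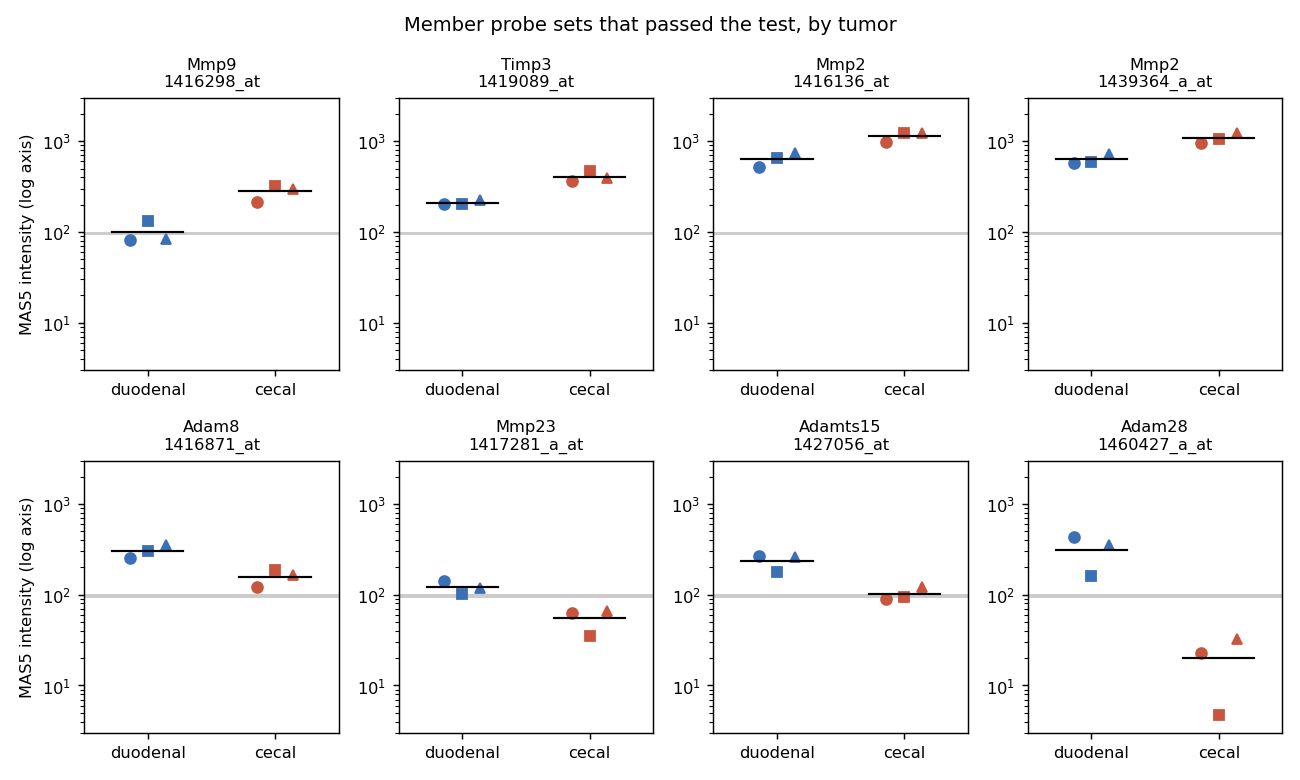
Intensity (log axis) of the 8 member probe sets that passed, for the 3 duodenal (blue) and 3 cecal (red) tumors; circles, squares and triangles are tumors 1, 2 and 3, black lines are means and the grey band spans the arrays' 40th percentiles. Cecal tumors are higher for Mmp9, Timp3 and Mmp2 and lower for Adam8, Mmp23, Adamts15 and Adam28, and all cecal values of Adam28 (4.7 to 32.2) lie below the band.

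Among the gelatinases, which cut denatured collagen and basement membrane collagen, both genes on the array were higher in cecal tumors. Mmp9, gelatinase B, is known as a product of neutrophils and macrophages. Its brighter probe set (1416298_at) read 82.4, 133.6 and 82.8 in duodenal tumors 1, 2 and 3 and 215.3, 324.4 and 301.3 in cecal tumors 1, 2 and 3. Every cecal tumor was above every duodenal tumor, and duodenal tumor 2 alone among the duodenal tumors was above the detection level. The means were 99.6 ± 29.4 (SD, n = 3) and 280.3 ± 57.5 (n = 3), a log2 fold of 1.37 ± 0.23 (SE; limma adjusted p = 0.00967). This call was kept in each of the 15 alternatives in which the probe set was tested. The dimmer probe set (1448291_at) read 50.5, 101.8 and 78.7 in duodenal against 120.6, 225.9 and 223.7 in cecal tumors. It also did not overlap, at 77 ± 25.7 and 190.1 ± 60.2, and had a log2 fold of 1.14 ± 0.30, which did not pass (adjusted p = 0.0523), but passed with replicate numbers as a block (0.0101) and without duodenal tumor 2 (0.0439) or cecal tumor 1 (0.037). Over its alternatives the adjusted p ran from 0.00899 to 0.179.

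Markers of neutrophils and macrophages were read beside Mmp9. Of 7 neutrophil genes on the array, 5 (Csf3r, Cxcr2, Mpo, Elane and Ngp) lay below the detection level on all arrays, and of the 2 tested genes 0 passed by limma (0 with an unadjusted p under 0.05). S100a8 read 144.8, 58.9 and 30.9 in duodenal against 93.6, 154.1 and 825.3 in cecal tumors. Cecal tumor 3 was thus far above the others in S100a8. The summed neutrophil list ran from 205.7 to 487 in duodenal and from 331.7 to 1725 in cecal tumors and overlapped. Of 6 tested macrophage genes 0 passed by limma, also with the block (3 had an unadjusted p under 0.05), while the summed list of 7 was 6634 to 7365 in duodenal and 7966 to 9737 in cecal tumors. Cd14, Lyz2 and Mrc1 were above every duodenal tumor in every cecal tumor (log2 folds 0.40, 0.33 and 0.42, adjusted p = 0.145, 0.213 and 0.184), and so was Itgam, which was below the detection level on all arrays. Cd68 was below every duodenal tumor in every cecal tumor (-0.14, adjusted p = 0.578), and Adgre1 (0.06, adjusted p = 0.879) and Csf1r (0.08, adjusted p = 0.78) overlapped. The part of these cells in the Mmp9 values was not tested.

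Mmp2, gelatinase A, is made mainly by fibroblasts and is activated at the cell surface by Mmp14 together with Timp2. Its probe set 1416136_at read 514, 653.4 and 741 in duodenal against 968.7, 1236.7 and 1231.5 in cecal tumors. Its probe set 1439364_a_at read 580.3, 595 and 724.6 in duodenal against 949.3, 1050.5 and 1237.9 in cecal tumors. Neither overlapped between sites. The means of the former were 636.1 ± 114.5 and 1146 ± 153.3 (SD, n = 3 each), with a log2 fold of 0.84 ± 0.17 (SE; adjusted p = 0.0201). The latter gave 633.3 ± 79.4 and 1079 ± 146.4, with a log2 fold of 0.75 ± 0.15 (adjusted p = 0.0188). Neither call held when duodenal tumor 1 was left out (adjusted p = 0.0656 and 0.0734), cecal tumor 2 (0.0857 and 0.0669) or cecal tumor 3 (0.0567 and 0.0511), with folds of 0.65 to 0.78.

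The membrane-type protease Mmp14, which activates Mmp2, did not pass. Its probe set 1448383_at read 1111.5, 1807.5 and 1221.4 in duodenal against 792.7, 1130 and 1384.3 in cecal tumors. The sites overlapped, and duodenal tumor 2 was the highest. The means were 1380 ± 374.2 and 1102 ± 296.8 (SD, n = 3 each), and the log2 fold was -0.32 ± 0.24 (95% interval -0.88 to 0.24; adjusted p = 0.483). Its other probe set (1416572_at) read 573.1, 977.1 and 550.4 against 482.2, 600.6 and 709.9, with means of 700.2 ± 240.1 and 597.6 ± 113.9, and gave -0.19 ± 0.24 (95% interval -0.74 to 0.36; adjusted p = 0.698), a fold that turned to 0.070 without duodenal tumor 2. Whether the fold of Mmp14 differs from that of Mmp2 was not tested.

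Mmp23, a protease anchored in the membrane by its propeptide, was the only called Mmp that was lower in cecal tumors. Its probe set 1417281_a_at read 139.9, 101.9 and 118.8 in duodenal against 62.1, 35.5 and 66.5 in cecal tumors, with no overlap. All duodenal values were above the detection level, that of tumor 2 only just, and all cecal values were below it. The difference is thus given as duodenal tumors at least 1.24-fold above cecal ones. The fitted log2 fold was -0.97 ± 0.25 (adjusted p = 0.0486). The call was lost without any 1 of the 6 tumors (adjusted p = 0.0548 to 0.164), with an offset of 1 (0.061), with quantile normalization (0.0685) or median centring (0.0683) and with no filter (0.0752). Its other probe set (1417282_at) was above the detection level on 2 duodenal arrays and was not tested; its values, 139.1, 77.8 and 102.3 against 85.9, 68.5 and 95.5, overlapped.

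The collagenases, stromelysins and macrophage elastase lie side by side on chromosome 9 in the order Mmp13, Mmp12, Mmp1b, Mmp3, Mmp1a, Mmp10, Mmp8, Mmp27 and Mmp20, in the RefSeq table of assembly GRCm38.p6. Members were 8 of these, and Mmp27 had no probe set of its own in the annotation used. Tested were 4, Mmp13, Mmp12, Mmp3 and Mmp10. Promoters of this cluster are known to hold an AP-1 element, the site of Fos and Jun factors, close to a TATA box. The stretch of 150 bases ahead of the transcription start is shown for Mmp13, Mmp3 and Mmp10, whose windows hold both motifs, and for Timp3, a called member whose window holds neither AP-1 nor TATA. Sequences are from RefSeq promoters (GRCm38.p6), 5′ to 3′ on the plus strand in each case, and capitals mark matches to the AP-1 motif (TGACTCA, or TGAGTCA on the other strand), the TATA motif (TATAAA, or TTTATA) and the GC box (GGGCGG, or CCGCCC). The lines give Mmp13 at chr9:7272364-7272513, Mmp3 at chr9:7445672-7445821, Mmp10 at chr9:7502192-7502341 and Timp3 at chr10:86300262-86300411.
Mmp13: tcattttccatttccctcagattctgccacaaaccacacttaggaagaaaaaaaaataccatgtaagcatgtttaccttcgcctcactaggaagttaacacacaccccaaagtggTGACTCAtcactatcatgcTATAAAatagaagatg
Mmp3: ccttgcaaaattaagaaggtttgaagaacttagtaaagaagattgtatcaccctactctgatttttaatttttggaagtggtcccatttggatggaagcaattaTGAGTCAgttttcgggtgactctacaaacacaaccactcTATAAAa
Mmp10: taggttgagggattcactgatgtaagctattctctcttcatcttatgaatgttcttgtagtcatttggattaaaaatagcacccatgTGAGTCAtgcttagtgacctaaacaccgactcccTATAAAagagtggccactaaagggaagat
Timp3: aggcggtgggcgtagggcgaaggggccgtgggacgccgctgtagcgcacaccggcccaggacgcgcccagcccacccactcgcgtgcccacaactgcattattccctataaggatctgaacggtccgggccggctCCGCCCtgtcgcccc

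The AP-1 match began 35 bases before the start in Mmp13, 46 in Mmp3 and 63 in Mmp10, with a TATA match 16, 7 and 29 bases before it. Of the 8 cluster members, all had a promoter entry. An AP-1 match was found in 6 of them (Mmp13, Mmp12 at the other of its starts, Mmp1b, Mmp3, Mmp1a and Mmp10), and in 5 of these a TATA match in the same window. Among 21 other member genes with an entry, 1 had an AP-1 match, Adam19. Of all 32851 promoter windows of that length, 2.84% held the AP-1 motif, 7.57% the TATA motif, 0.31% both and 28.6% the GC box. No cluster member had a GC box, and Timp3 had 1, 15 bases before its start. Mmp2, Mmp9, Adam28 and Adamts15 had no entry. A match is a description of these letters only.

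None of the 4 tested cluster genes passed, and the sites overlapped in all 4. Mmp13, collagenase 3, read 1121.6, 359.5 and 367.9 in duodenal against 710.9, 1106.2 and 1754.8 in cecal tumors. Duodenal tumor 1 was level with cecal tumor 2, so the sites overlapped. The log2 fold was 1.05 ± 0.46 (SE, 95% interval -0.02 to 2.11; adjusted p = 0.222), or 1.57 without duodenal tumor 1 (adjusted p = 0.038; range over its alternatives 0.038 to 0.431). Mmp3, stromelysin 1, which cuts a wide range of matrix proteins, read 455.7, 85.6 and 117.5 in duodenal against 119.1, 103.5 and 229.7 in cecal tumors. The highest tumor of each site in Mmp13, duodenal 1 and cecal 3, was also the highest in Mmp3. The log2 fold of Mmp3 was -0.23 ± 0.55 (95% interval -1.48 to 1.02; adjusted p = 0.849), and 0.44 without duodenal tumor 1 (0.553).

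Mmp10, stromelysin 2, read 1600.3, 1419.4 and 850.6 in duodenal against 1010.3, 1612.7 and 1837.3 in cecal tumors. The sites overlapped in part, with duodenal tumor 3 below and cecal tumors 2 and 3 above all tumors of the other site, and it had a log2 fold of 0.21 ± 0.28 (95% interval -0.44 to 0.86; adjusted p = 0.721), or -0.063 without duodenal tumor 3. Its highest tumors were again duodenal 1 and cecal 3. Mmp12, macrophage elastase, read 108, 179.6 and 183.3 in duodenal against 123, 81 and 248 in cecal tumors, with cecal tumor 3 the highest of all and duodenal tumor 1 the lowest of its site. Its log2 fold was -0.15 ± 0.37 (95% interval -0.99 to 0.69; adjusted p = 0.855), or 0.18 without cecal tumor 2. S100a8 (values above) was also highest in duodenal tumor 1 and cecal tumor 3 of their sites, as were S100a9 and the dim Csf3r. Other dim neutrophil genes were highest in duodenal tumor 2 (Cxcr2 and Elane) or duodenal tumor 3 (Mpo and Ngp). The summed neutrophil, B and plasma cell, smooth muscle and duodenum lists were also highest in duodenal tumor 1 and cecal tumor 3, and the other marker lists were not. The part of neutrophils in the values of this cluster was not tested.

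**Figure D2:**
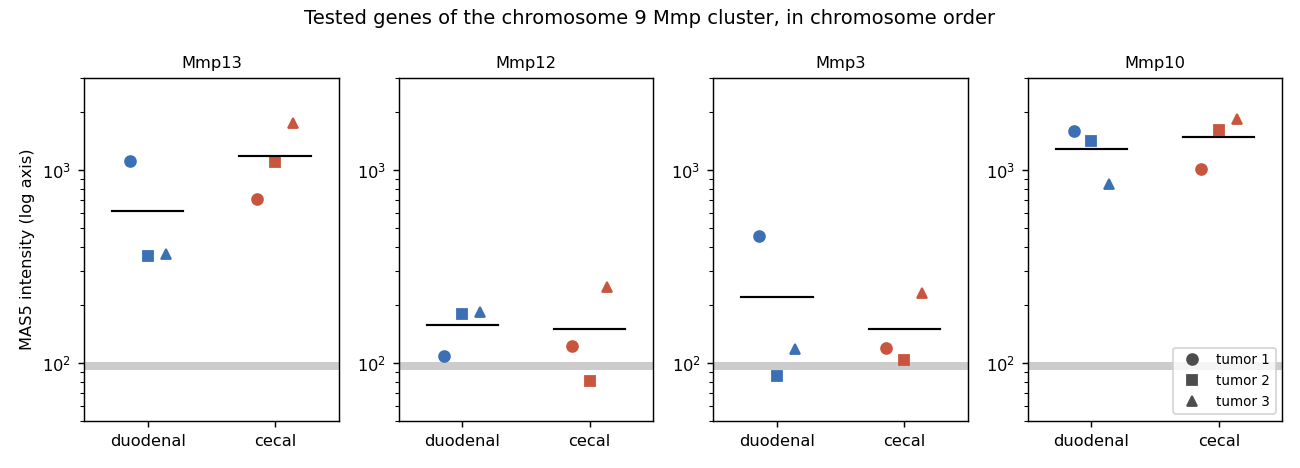
Intensity (log axis) of Mmp13, Mmp12, Mmp3 and Mmp10 in the 3 duodenal (blue) and 3 cecal (red) tumors, with black lines at the means and a grey band over the arrays' 40th percentiles. The sites overlap in every panel, and duodenal tumor 1 (circle) and cecal tumor 3 (triangle) are the highest of their sites for Mmp13, Mmp3 and Mmp10.

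Of the inhibitors, Timp3 was higher in cecal tumors and the others did not pass. Of 10 tested Timp probe sets 9, all of Timp2 or Timp3, had a positive fold and 1 passed. Timp3 was measured by 4 tested probe sets, all with a positive fold. The called probe set (1419089_at) read 205.1, 201.6 and 225.5 in duodenal against 360.1, 470.3 and 389.6 in cecal tumors. The sites were well apart, at 210.7 ± 12.9 and 406.7 ± 57 (SD, n = 3 each), with a log2 fold of 0.89 ± 0.15 (SE; adjusted p = 0.00919) that was kept in all 17 alternatives. Probe set 1419088_at read 88.6, 140.5 and 75.7 against 160.7, 251.5 and 188.5 (means 101.6 ± 34.3 and 200.2 ± 46.5, log2 fold 0.90 ± 0.25). It did not overlap and did not pass (adjusted p = 0.0672, or 0.0229 with replicate numbers as a block and 0.0275 without duodenal tumor 2, over a range of 0.0141 to 0.217). Probe set 1449335_at read 314.2, 306.8 and 310.2 against 412.8, 596.9 and 421.7 (means 310.4 ± 3.7 and 477.1 ± 103.8, 0.58 ± 0.17), also without overlap, and did not pass (adjusted p = 0.0735, but 0.0471 with quantile normalization and 0.0416 with median centring, over a range of 0.0249 to 0.212). The remaining probe set (1449334_at) read 69.9, 173.6 and 96.3 against 118.7, 203 and 128.7 and overlapped (means 113.3 ± 53.9 and 150.1 ± 46.1, 0.41 ± 0.32, adjusted p = 0.506).

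Timp2, which both inhibits Mmp2 and takes part in its activation, had 5 tested probe sets, all with a positive fold and none passing. The brightest (1454677_at) read 783.3, 786.8 and 1158.6 in duodenal against 1226.2, 1198.6 and 1365.9 in cecal tumors. It did not overlap, at 909.6 ± 215.7 and 1264 ± 89.7, and its log2 fold was 0.49 ± 0.17 (SE, 95% interval 0.09 to 0.89; adjusted p = 0.13). Without duodenal tumor 3, the highest duodenal tumor, it was 0.67 (adjusted p = 0.0349, over a range of 0.0349 to 0.337). Probe set 1420924_at read 165.4, 215.3 and 223.4 against 291.6, 240.5 and 266.8, again without overlap (means 201.4 ± 31.4 and 266.3 ± 25.6, 0.38 ± 0.17, adjusted p = 0.214). Probe set 1450040_at read 116.1, 111.9 and 266.6 against 249.6, 236.3 and 298.3 and overlapped (means 164.9 ± 88.1 and 261.4 ± 32.6, 0.71 ± 0.30, adjusted p = 0.202, or 0.0179 without duodenal tumor 3, over a range of 0.0179 to 0.442). In these sets duodenal tumor 3 stood nearest the cecal tumors.

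The other tested Timp2 probe sets had smaller folds. Probe set 1433662_s_at read 496.8, 533.6 and 732.4 against 704.7, 665.7 and 703.5 (means 587.6 ± 126.7 and 691.3 ± 22.2, log2 fold 0.25 ± 0.16, adjusted p = 0.419). Probe set 1460287_at read 515.6, 792.1 and 822.6 against 719.7, 747.5 and 874.2 (means 710.1 ± 169.1 and 780.5 ± 82.4, 0.16 ± 0.19, adjusted p = 0.688), and its fold was -0.053 without duodenal tumor 1. Both overlapped between sites. Timp1, the inducible inhibitor, read 326.8, 185.7 and 223.6 in duodenal against 124.1, 197.6 and 234 in cecal tumors. It overlapped, at 245.4 ± 73 and 185.2 ± 56.0, and had a log2 fold of -0.38 ± 0.27 (95% interval -1.0 to 0.24; adjusted p = 0.452). Timp4 was below the detection level on all arrays by both of its probe sets, as was a further Timp2 probe set.

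Fibroblast markers were read beside Mmp2 and the Timps, since these are known stromal products. Of 10 tested fibroblast genes 3 were higher in cecal tumors (Col3a1, Thy1 and Fap), or 4 with replicate numbers as a block, and 0 were lower. Over all 8125 genes tested by their brightest probe set, 5.71% were higher. Fap was below the detection level in all duodenal tumors, so the direction of its fold largely follows from the filter. The summed list was 12847 to 16930 in duodenal and 17949 to 22692 in cecal tumors and did not overlap. Its members Pdgfra, Dcn, Lum and Postn overlapped, with log2 folds of 0.15 to 0.35. No smooth muscle gene (0 of 6) and no endothelial gene (0 of 4 tested) passed by limma (0 and 1 with an unadjusted p under 0.05), and their summed lists overlapped. The part of stromal cells in the Mmp2 and Timp values was not tested.

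Of the ADAMs, Adam28 and Adam8 were higher in duodenal tumors and none was higher in cecal tumors. Adam28, a membrane protease known from lymphocytes and some epithelia, had the largest log2 fold of the 37 tested probe sets. Its probe set 1460427_a_at read 427.5, 162.4 and 354.1 in duodenal against 22.8, 4.7 and 32.2 in cecal tumors. All duodenal tumors were above and all cecal tumors below the detection level, and duodenal tumor 2 was the lowest of its site. The means were 314.7 ± 136.9 and 19.9 ± 14 (SD, n = 3 each), so that duodenal tumors were at least 3.03-fold above cecal ones (fitted log2 fold -3.19 ± 0.42, adjusted p = 0.00306), a call kept in all 15 alternatives in which it was tested. Its other probe set (1452495_at) was below the detection level on all arrays and not tested; chosen for mention after its values were seen, it read 58.8, 36.8 and 39.4 against 11.6, 12.1 and 11.6.

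Adam8, a sheddase known from myeloid cells, read 251.6, 304.7 and 355.1 in duodenal against 121.4, 187.4 and 165 in cecal tumors. The sites did not overlap, and all values were above the detection level. The means were 303.8 ± 51.8 and 157.9 ± 33.6 (SD, n = 3 each), a log2 fold of -0.88 ± 0.20 (SE; adjusted p = 0.0306). The call was lost with no filter on dim probe sets (0.054) and without duodenal tumor 2 (0.0696), duodenal tumor 3 (0.0991), cecal tumor 1 (0.0919) or cecal tumor 3 (0.0574), with folds of -0.92 to -0.72. The tested neutrophil and macrophage markers (above) did not pass in either direction. No T cell marker was tested, 4 of 5 being dim on all arrays (summed 152.7 to 224.1 in duodenal and 234.6 to 290.3 in cecal tumors), and the 1 tested B and plasma cell marker did not pass (list 5299 to 8020 and 5723 to 10208). In duodenal tumors 1, 2 and 3 the stomach and pylorus list summed to 63427, 56005 and 84487, the duodenum list to 11314, 2883 and 11271 and the smooth muscle list to 7967, 4611 and 7365. All 3 lists were lowest in tumor 2, as were Adam28, Adamts15 and Mmp23, whereas Adam8 was lowest in tumor 1. The B and plasma cell list (8020, 5299 and 7567) and the endothelial list (716.7, 525.6 and 681.8) were also lowest in tumor 2. So was the large intestine list (1090, 675.3 and 812.2). The fibroblast, macrophage, mast cell and epithelial lists were lowest in duodenal tumor 1, and the neutrophil and T cell lists in duodenal tumor 3. The part of pyloric tissue, duodenal epithelium, smooth muscle or lymphocytes in the Adam28, Adam8, Adamts15 and Mmp23 values was not tested.

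Adam10 and Adam17, the main sheddases of Notch receptors and of EGF receptor ligands and Tnf, did not pass by any of their 6 tested probe sets. Adam10 read 2907.3, 3141.7 and 3074.4 in duodenal against 3143.9, 2622.6 and 2563.6 in cecal tumors by its brightest probe set (1428103_at). The sites overlapped, at 3041 ± 120.7 and 2777 ± 319.4, with a log2 fold of -0.14 ± 0.12 (SE, 95% interval -0.41 to 0.13; adjusted p = 0.552). Its probe set 1450105_at read 1301.7, 1625.8 and 1612.7 against 1419.8, 1206.9 and 1213.4 (means 1513 ± 183.5 and 1280 ± 121.1; log2 fold -0.24 ± 0.14), with an interval of -0.55 to 0.08 (adjusted p = 0.36). Its probe set 1450104_at read 462.1, 785.6 and 685.5 against 564.8, 691.7 and 526 (means 644.4 ± 165.6 and 594.2 ± 86.7; log2 fold -0.09 ± 0.21), with an interval of -0.57 to 0.39 (adjusted p = 0.846), and its fold was 0.17 with array weights and 0.066 without duodenal tumor 2. None of these intervals reaches a 2-fold difference.

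Adam17, also named Tace, was read by 3 probe sets. Probe set 1421858_at read 657.3, 574.8 and 644.5 in duodenal against 597.2, 583.8 and 576.9 in cecal tumors (means 625.5 ± 44.4 and 586 ± 10.3, log2 fold -0.09 ± 0.12, 95% interval -0.37 to 0.19; adjusted p = 0.72). Probe set 1421859_at read 364.7, 434.2 and 457.8 against 401.2, 395.6 and 421.8 (means 418.9 ± 48.4 and 406.2 ± 13.8, log2 fold -0.04 ± 0.14, 95% interval -0.35 to 0.28; adjusted p = 0.906). Both overlapped between sites. Probe set 1421857_at read 238.9, 245.4 and 272.1 against 225.9, 219.1 and 217.3 and did not overlap, at 252.1 ± 17.6 and 220.8 ± 4.5, but its log2 fold of -0.18 ± 0.14 (95% interval -0.49 to 0.14) did not pass (adjusted p = 0.494).

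The remaining tested ADAMs did not pass. Adam9, a widely expressed sheddase, read 2309, 1743.7 and 2440 in duodenal against 1943, 1583.4 and 1587 in cecal tumors, and overlapped (log2 fold -0.33 ± 0.16, adjusted p = 0.259). Adam15 had a pair of tested probe sets with log2 folds of -0.29 ± 0.19 and -0.28 ± 0.18 (adjusted p = 0.414 and 0.407). The dimmer of them (1454206_a_at) read 133.5, 157.8 and 153.8 against 126.6, 100.5 and 133.4 and did not overlap, with means of 148.4 ± 13 and 120.2 ± 17.4 and cecal tumor 3 just under duodenal tumor 1. Adam19 had the only positive fold among the ADAMs, 0.22 ± 0.16 (adjusted p = 0.456), with values of 201.2 to 243.7 in duodenal and 232 to 295 in cecal tumors. Of the 12 tested ADAM probe sets, which came from 7 genes, 11 thus had a negative fold. However, that of Adam17 1421859_at turned to 0.001 with quantile normalization, 0.020 with median centring and 0.028 with array weights or without duodenal tumor 3. The fold of Adam10 1450104_at turned as given above.

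Among the ADAMTS proteases, Adamts15 was higher in duodenal tumors. Adamts15, a protease that cuts versican and aggrecan, read 267.9, 177.8 and 263.3 in duodenal against 88.8, 93.5 and 121.5 in cecal tumors. There was no overlap, and only cecal tumor 3 of its site was above the detection level. The means were 236.3 ± 50.7 and 101.3 ± 17.7 (SD, n = 3 each), a log2 fold of -1.09 ± 0.21 (SE; adjusted p = 0.0157). The call was lost without duodenal tumor 1 (0.0635), duodenal tumor 3 (0.06), cecal tumor 1 (0.0632) or cecal tumor 2 (0.0634), with folds of -1.05 to -1.0. Adamts1, Adamts4 and Adamts10 overlapped between sites, with log2 folds of -0.39 ± 0.29, -0.04 ± 0.21 and 0.42 ± 0.22 (adjusted p = 0.47, 0.942 and 0.305). The Adamts4 fold turned to 0.021 under both quantile normalization and median centring.

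**Figure D3:**
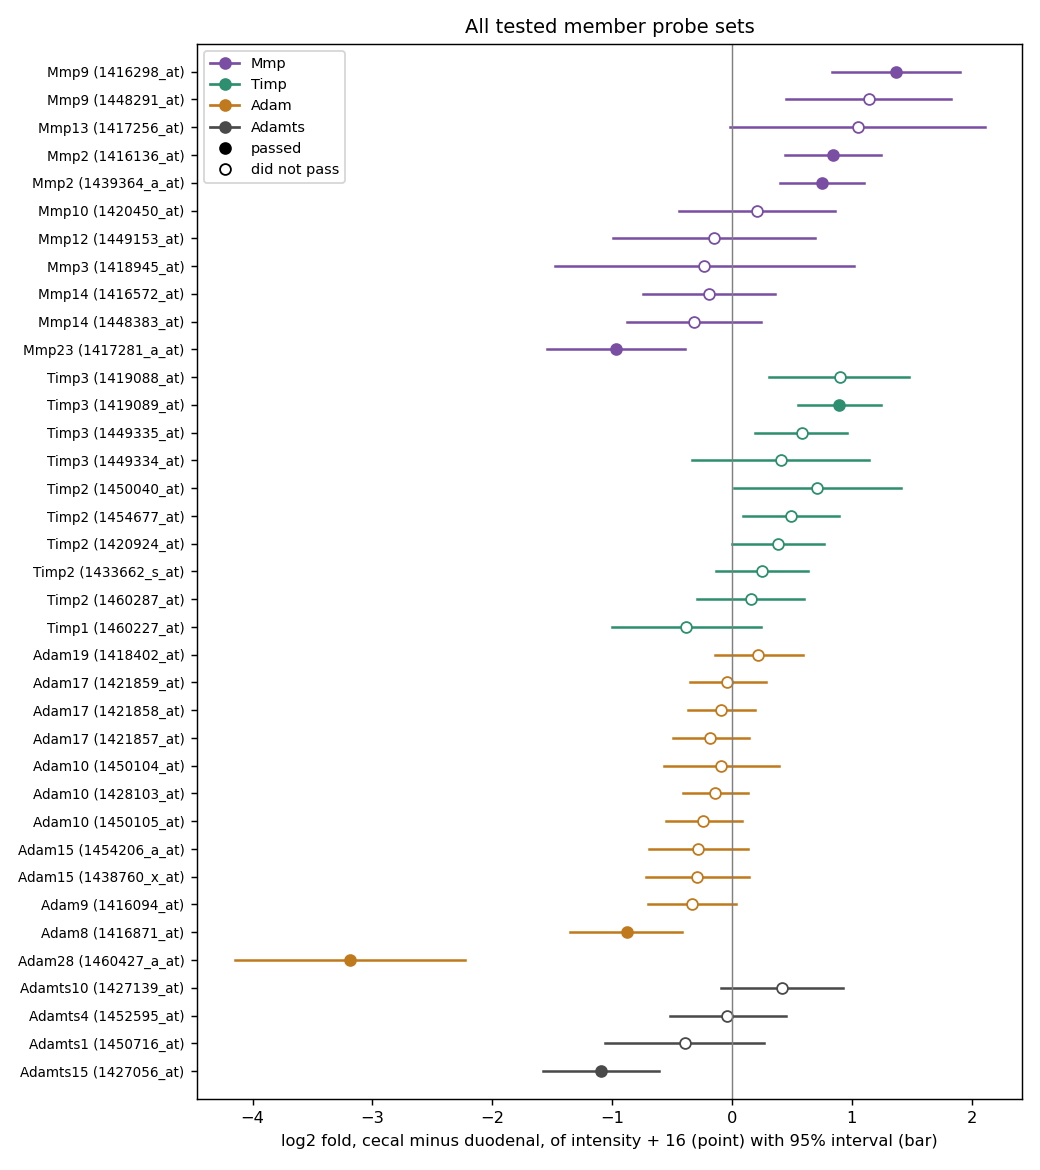
Log2 fold (cecal minus duodenal, of intensity + 16) of the 37 tested member probe sets, with 95% intervals from limma as bars, coloured by family; filled points passed at an adjusted p of 0.05. All Timp2 and Timp3 points lie right of 0, 11 of 12 Adam points lie left of it (Adam17 1421859_at turns positive with quantile normalization, median centring, array weights or without duodenal tumor 3, and Adam10 1450104_at with array weights or without duodenal tumor 2), and Adam28 at -3.19 stands farthest from 0.

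The other 45 probe sets were too dim to be tested, and for 31 genes no probe set was tested. These genes were Mmp1a, Mmp1b, Mmp8, Mmp11, Mmp16, Mmp17, Mmp19, Mmp20 and Mmp24, Timp4, Adamts5, Adamts7 and Adamts8, and 18 ADAMs: Adam1a, Adam1b, Adam2, Adam3, Adam4, Adam5, Adam7, Adam11, Adam12, Adam18, Adam21, Adam22, Adam23, Adam24, Adam25, Adam26a, Adam33 and Adam34. Several of these, such as Adam2 and Adam3, are known as sperm proteins. Of the 45, 40 were below the detection level on all arrays. The other 5 were above it on 1 or 2 arrays: a further probe set each of Adam15, Adam19 and Mmp23, and those of Adam4 and Adam12. Adam12, a stromal sheddase, read 46.5, 54.5 and 47.7 in duodenal against 77.5, 136.4 and 73.3 in cecal tumors by its brighter probe set, which did not overlap and was above the level only in cecal tumor 2. Adam4 read 81.4, 62.3 and 68.2 against 86.6, 104.4 and 44.6. At such intensities a difference could not be measured.

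Where 8 genes had several tested probe sets, the folds of each gene had the same sign. Under some alternatives 1 probe set each of Adam17, Adam10, Mmp14 and Timp2 took the other sign: Adam17 1421859_at with quantile normalization, median centring, array weights or without duodenal tumor 3, Adam10 1450104_at with array weights or without duodenal tumor 2, Mmp14 1416572_at without duodenal tumor 2, and Timp2 1460287_at without duodenal tumor 1. Same-sign probe sets of a gene share its transcript and array and are not replicates.

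Relatives and partners outside the member families were counted from lists. Of 8125 genes tested by their brightest probe set, 10.4% passed, 5.71% higher and 4.73% lower in cecal tumors. Among relatives of the ADAMs and Mmps, 3 of 5 tested genes were higher in cecal tumors. Adamdec1, a short ADAM-like protease of gut macrophages, read 2403.5, 3522.9 and 2143.2 in duodenal against 10448.6, 11071.3 and 10111.8 in cecal tumors, far apart (log2 fold 2.00 ± 0.18, adjusted p = 0.000441). The meprin subunits Mep1a (log2 fold 3.91) and Mep1b (1.91, adjusted p = 0.0307), zinc proteases of the brush border, were the others. The Mep1b call was lost with robust variances (0.0665) and without duodenal tumor 3 (0.0754) and likewise without cecal tumor 1 (0.12) or cecal tumor 2 (0.0997). The list's median was 1.91.

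Of 5 tested inhibitors other than Timps, 1 was lower and 1 higher. A2m, the plasma protease inhibitor alpha-2-macroglobulin, read 2903.1, 537.4 and 752 in duodenal against 8.9, 4.4 and 15.1 in cecal tumors. It was thus bright in all duodenal tumors, most so in tumor 1, and below the detection level in all cecal tumors, a difference of at least 11-fold (adjusted p = 0.000878). Thbs2, a matrix protein that clears Mmp2 from tissue, read 39.4, 51 and 27.9 against 127.8, 139.2 and 149.9, cecal tumors being at least 1.38-fold above duodenal ones (adjusted p = 0.00582). As A2m and Thbs2 were dim in a whole site, the direction of their folds largely follows from the filter. Reck, a membrane-anchored inhibitor, was not tested.

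Of 12 tested activators and cofactors, 0 passed by limma (4 had an unadjusted p under 0.05), with a median log2 fold of 0.01. Of these 12, 2 were lower with replicate numbers as a block: Pcsk6, a proprotein convertase (log2 fold -0.67, adjusted p = 0.0604, or 0.0455 with the block), and Tspan5, an Adam10 partner (-0.99, adjusted p = 0.0594, or 0.00836). Of 2 tested plasminogen activation genes, Plat, the tissue plasminogen activator, was lower in cecal tumors, with 1406.3, 3455.3 and 2165.9 in duodenal against 676.9, 1224.1 and 683.5 in cecal tumors (log2 fold -1.39 ± 0.34, adjusted p = 0.0405). The Plat call was lost without duodenal tumor 2 (0.0752), duodenal tumor 3 (0.103), cecal tumor 1 (0.145) or cecal tumor 3 (0.0978), with array weights (0.109), robust variances (0.0626), no filter (0.0626) and no intensity trend (0.053).

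Among 19 tested membrane proteins known to be shed by ADAMs, 1 was higher and 1 lower, with a median of 0.11. L1cam, an adhesion molecule cut by Adam10, was higher in cecal tumors at 1552.4, 1763.2 and 1454.6 against 506.8, 577.3 and 396.3 (log2 fold 1.67 ± 0.16, adjusted p = 0.000761). Cd44 was the gene that was lower (log2 fold -0.71 ± 0.15, adjusted p = 0.0215), a call lost without duodenal tumor 1 (0.082), duodenal tumor 3 (0.0667), cecal tumor 1 (0.0852) or cecal tumor 2 (0.0873). Notch1, an Adam10 and Adam17 substrate, did not pass (log2 fold -0.47 ± 0.15, adjusted p = 0.106).

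Of 18 tested matrix substrates, 3 were higher in cecal tumors and 0 lower, or 7 higher with replicate numbers as a block, and the median was 0.52. Versican (Vcan), a substrate of Adamts15, read 139.9, 118.2 and 178 in duodenal against 313.8, 244.4 and 281.1 in cecal tumors (log2 fold 0.88 ± 0.19, adjusted p = 0.0228), the direction opposite to Adamts15. Both are RNA values, and whether the folds of Vcan and Adamts15 are related was not tested. The call of Vcan was lost when any tumor other than duodenal tumor 3 was left out (0.0507 to 0.0906). Nid1, a basement membrane protein, had a log2 fold of 0.70 ± 0.14 (adjusted p = 0.0157), a call that needed duodenal tumor 1 (0.063 when left out), cecal tumor 1 (0.0575) and cecal tumor 2 (0.0529). Col3a1, a fibrillar collagen also on the fibroblast list, had 0.73 ± 0.15 (adjusted p = 0.0173), lost without duodenal tumor 1 (0.0646) or cecal tumor 1 (0.058).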

How the data were processed

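The data were 6 Affymetrix arrays, 3 duodenal and 3 cecal tumors, with the tumors of each site from different mice. The authors deposited linear intensities made with MAS5, per the submitters' processing notes. The MAS5 settings are otherwise not given in the sources used here. Means between the 2nd and 98th percentiles were 500 to 500.8, so the arrays were already on a common scale. Groups and replicate numbers came from sample titles.

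Probe sets were named by platform annotation (20380 with 1 gene, 691 with several, 1555 with none, and 64 controls left out). All 82 members matched a RefSeq gene of GRCm38.p6 with the same symbol. Probe sets above the array's 40th percentile on at least 3 arrays were compared as log2(intensity + 16) with limma 3.58.1 (R 4.3.3; lmFit and trended eBayes). Tests were two-sided and adjusted by Benjamini-Hochberg over all 13866. The offset understates changes of dim genes. A fold "at least" sets the bright group's mean log2 intensity against the dim group's 40th percentiles. Each member is reported, in full if it was tested and passed, did not overlap, or is a Timp, Mmp2, Mmp9, Mmp14, Adam10 or Adam17; list genes are represented by their brightest probe set. Members, lists and tests were chosen with earlier results of these data known. Of 100 probe sets simulated at each size in the same 13866, 59% changed 2-fold and 88% changed 4-fold were called. Far fewer probe sets were changed there than the 1290 that passed in the data. The adjustment thus differs, and these shares may not hold for the real comparison.

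Deviations from group means correlated at 0.274, 0.299 and 0.203 for same-numbered tumors and at -0.2 to -0.0261 for others. Every same-numbered pair was thus above every other pair. Pairing by number rests on the data alone. Sample titles do not say whether same-numbered tumors share a mouse or a batch, and the cause was not tested. The counts and p-values given are from the fit without a block unless the block is named. Figures used Python 3.11.15 and matplotlib 3.10.9.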

Additional observations from a re-analysis of the deposited data

How the results depend on the processing

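Of 8 member calls, those of Mmp9, Timp3 and Adam28 were kept under every alternative in which they were tested. With the replicate number as a block, 10 members passed, all 8 among them, and pairing changed no other member call than those given for Mmp9 and Timp3. The even split of 4 higher and 4 lower in cecal tumors depended on the scaling. Quantile normalization and median centring each gave 10 members, 7 higher and 3 lower, and array weights gave 12, 8 higher and 4 lower. Passing members numbered 4 when all 6 arrays had to be above the 40th percentile and 3 with the 60th percentile. Fewer were then tested (26 and 18). With a tumor left out 4 to 8 members passed, among them only 4 to 6 of the 8 calls. Without a filter Adam18 (below the level on all arrays) and the other Adam28 probe set passed. Over all probe sets 1939 passed with array weights and 658 to 1194 with a tumor left out, against 1290. Among list genes 11 passed, 18 with array weights, 17 with the block and 6 to 10 with a tumor left out; the cause was not tested. Signs turned only for members that never passed: Adam17 1421859_at (0.001 with quantile normalization, 0.020 with median centring, 0.028 with array weights, -0.13 to 0.028 with a tumor left out), Adamts4 (0.021, 0.021 and 0.13 with these, -0.22 to 0.096 with a tumor left out) and Adam10 1450104_at (0.17 with array weights, -0.31 to 0.066). With a tumor left out they ran from -0.063 to 0.46 for Mmp10, -0.54 to 0.18 for Mmp12, -0.33 to 0.070 for Mmp14 1416572_at, -0.66 to 0.44 for Mmp3 and -0.053 to 0.28 for Timp2 1460287_at. Only 3 arrays per site limit precision, and probe sets near the 40th percentile have uncertain folds.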
